A study of Mus musculus with 6 samples.

Results

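The genes described here encode the mitogen-activated protein (MAP) kinase cascade and the inhibitors that feed back on it. They were chosen by name, as every gene whose symbol in the array's annotation begins with Dusp, Mapk, Map2k, Map3k, Map4k, Spry or Spred, and they numbered 76 of the 16446 genes with a symbol. Each gene was read from 1 probe, the one with the highest mean over the 6 arrays. The arrays measured messenger RNA in hepatic stellate cells, pericytes of the liver that store vitamin A and turn into collagen-secreting myofibroblasts after injury. There were 3 arrays of cells from Sept4 knockout (KO) mice and 3 of cells from wild-type (WT) mice, and both groups had cirrhosis induced by carbon tetrachloride (CCl4), so no uninjured liver is compared. Sept4 encodes a septin, a GTP-binding protein that assembles into filaments. The labels give neither the animals' age, strain and sex nor the dose of CCl4, nor how the gene was inactivated, nor whether the cells were cultured before extraction. They do not say whether the arrays are separate mice, so the p-values reflect only how far these samples spread, and that spread may be technical.

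A MAP kinase cascade is a relay in which a MAP4K or a small GTPase switches on a MAP3K, which phosphorylates a MAP2K, which in turn phosphorylates a MAP kinase on a threonine and a tyrosine. The main branches end in the kinases ERK, JNK, p38 and ERK5, which carry growth factor and stress signals to the nucleus. Dual-specificity phosphatases (Dusp) remove both phosphates, and Sprouty and Spred proteins act further up, between growth factor receptors, Ras and Raf. Many of these inhibitors are themselves induced by the pathway and so form a feedback loop. In stellate cells, ERK signalling is known to relay the mitogenic effect of platelet-derived growth factor. An array reports transcript levels and not the phosphorylation through which these kinases work.

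The sequences below are the promoters of 2 kinase genes that moved in opposite directions, Map2k1 (higher in KO) and Map2k3 (lower in KO), and of 2 ERK phosphatase genes that were both lower in KO, Dusp6 and Dusp7. They are RefSeq sequences on build GRCm38.p6, each running 5′ to 3′ from 250 bases before the annotated gene start to 50 bases after it. Capitals mark matches to the GC box, GGGCGG on either strand.
Map2k1, chr9:64253556-64253855, minus strand: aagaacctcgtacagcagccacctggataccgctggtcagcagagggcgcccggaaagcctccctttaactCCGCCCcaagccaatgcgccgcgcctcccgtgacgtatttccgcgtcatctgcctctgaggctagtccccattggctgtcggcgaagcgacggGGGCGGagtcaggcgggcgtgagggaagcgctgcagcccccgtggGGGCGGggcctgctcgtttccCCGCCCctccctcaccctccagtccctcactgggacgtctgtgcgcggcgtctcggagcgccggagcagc
Map2k3, chr11:60931804-60932103, plus strand: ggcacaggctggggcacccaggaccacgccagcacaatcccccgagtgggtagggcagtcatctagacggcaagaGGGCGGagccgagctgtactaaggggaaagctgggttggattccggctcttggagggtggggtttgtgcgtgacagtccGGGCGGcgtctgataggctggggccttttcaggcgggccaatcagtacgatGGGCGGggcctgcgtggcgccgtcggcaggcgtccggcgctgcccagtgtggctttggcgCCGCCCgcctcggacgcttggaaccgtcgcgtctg
Dusp6, chr10:99262981-99263280, plus strand: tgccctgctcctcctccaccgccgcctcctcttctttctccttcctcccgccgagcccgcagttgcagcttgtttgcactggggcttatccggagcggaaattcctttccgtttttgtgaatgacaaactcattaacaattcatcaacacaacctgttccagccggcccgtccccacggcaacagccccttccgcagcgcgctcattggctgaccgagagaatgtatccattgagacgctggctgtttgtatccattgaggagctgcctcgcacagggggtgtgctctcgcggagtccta
Dusp7, chr9:106368382-106368681, plus strand: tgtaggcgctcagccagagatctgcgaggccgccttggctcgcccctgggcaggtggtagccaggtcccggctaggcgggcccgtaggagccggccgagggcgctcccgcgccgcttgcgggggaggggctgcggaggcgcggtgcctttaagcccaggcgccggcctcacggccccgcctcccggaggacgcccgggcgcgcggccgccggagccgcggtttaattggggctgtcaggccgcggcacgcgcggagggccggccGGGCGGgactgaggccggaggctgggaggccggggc
Both kinase promoters held 4 GC boxes, and their transcripts moved in opposite directions. In Map2k1 the boxes began at bases 72, 165, 210 and 231 of the printed run, and in Map2k3 at bases 76, 155, 206 and 266. Dusp7 held 1 GC box, at base 265, and Dusp6 held none. Such promoters, 1 per gene at its first listed start, were found for 59 of the 76 genes. A GC box lay in 8 of the 11 promoters of genes higher in KO, in 9 of the 12 of genes lower in KO and in 40 of all 59 (67.8%), against 35.9% of the 27025 promoters of that length in the table. The cyclic AMP response element TGACGTCA, the AP-1 site TGANTCA, the Egr site GCGNGGGCG, which can overlap a GC box, and the Ets site CCGGAAG were searched on both strands too. They lay in 3, 3, 6 and 5 of the 59 promoters, against 1.88%, 7.93%, 5.55% and 9.12% of all promoters. The CArG box bound by serum response factor lay in 0 of the 59 and in 1.57% of all. None of these 5 motifs was in the 4 promoters printed here.

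The arrays agreed closely within a genotype, with Pearson correlations over all probes of 0.981 to 0.982 among KO arrays and 0.986 among WT arrays. The array medians were all 5.02 on the log2 scale, but the upper quartiles were 7.82 to 7.84 on KO arrays and 7.70 to 7.73 on WT arrays. Differences are therefore also given after 2 further scalings, quantile normalisation and cyclic loess, where the call ends or the size moves by more than 1.5 times. The median difference of all probes, KO minus WT, was 0.12 in the deposited values, 0.02 with quantile normalisation and 0.01 with cyclic loess. All 13 stellate cell markers examined were measured, and 0 of them lay at the lowest value of any array. No probe named Sept4 was used, so the genotype labels were not checked against the deleted gene.

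As a set, the cascade and its inhibitors moved in both directions. At an adjusted p under 0.05 in limma (Benjamini-Hochberg over all probes, the threshold for every call below), 14 of the 76 genes rose in KO cells and 16 fell. That is 39.5% called, against 44.3% of all genes. The share that rose was 18.4%, against 29.4% of all genes, and the share that fell was 21.1%, against 14.9% of all genes. The median log2 difference, KO minus WT, was -0.04 for the set and 0.14 for all genes. After quantile normalisation 10 rose and 20 fell, so the share of calls that were higher was 33.3% in place of 46.7%, and among all genes 24.7% rose and 19.5% fell. After cyclic loess 10 rose and 19 fell. The changes were mostly small: 4 of the called genes differed by at least 2-fold (Mapk10, Map3k10, Mapk15 and Spryd3), each of them dim, and 6.4% of all genes were called at that size. The 3 KO values lay wholly above or wholly below the 3 WT values for 46 of the 76 genes, against 57.6% of all genes. The KO values were the higher for 20 members, against 37.1% of all genes, and the lower for 26 members, against 20.4% of all genes.

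**Figure D1:**
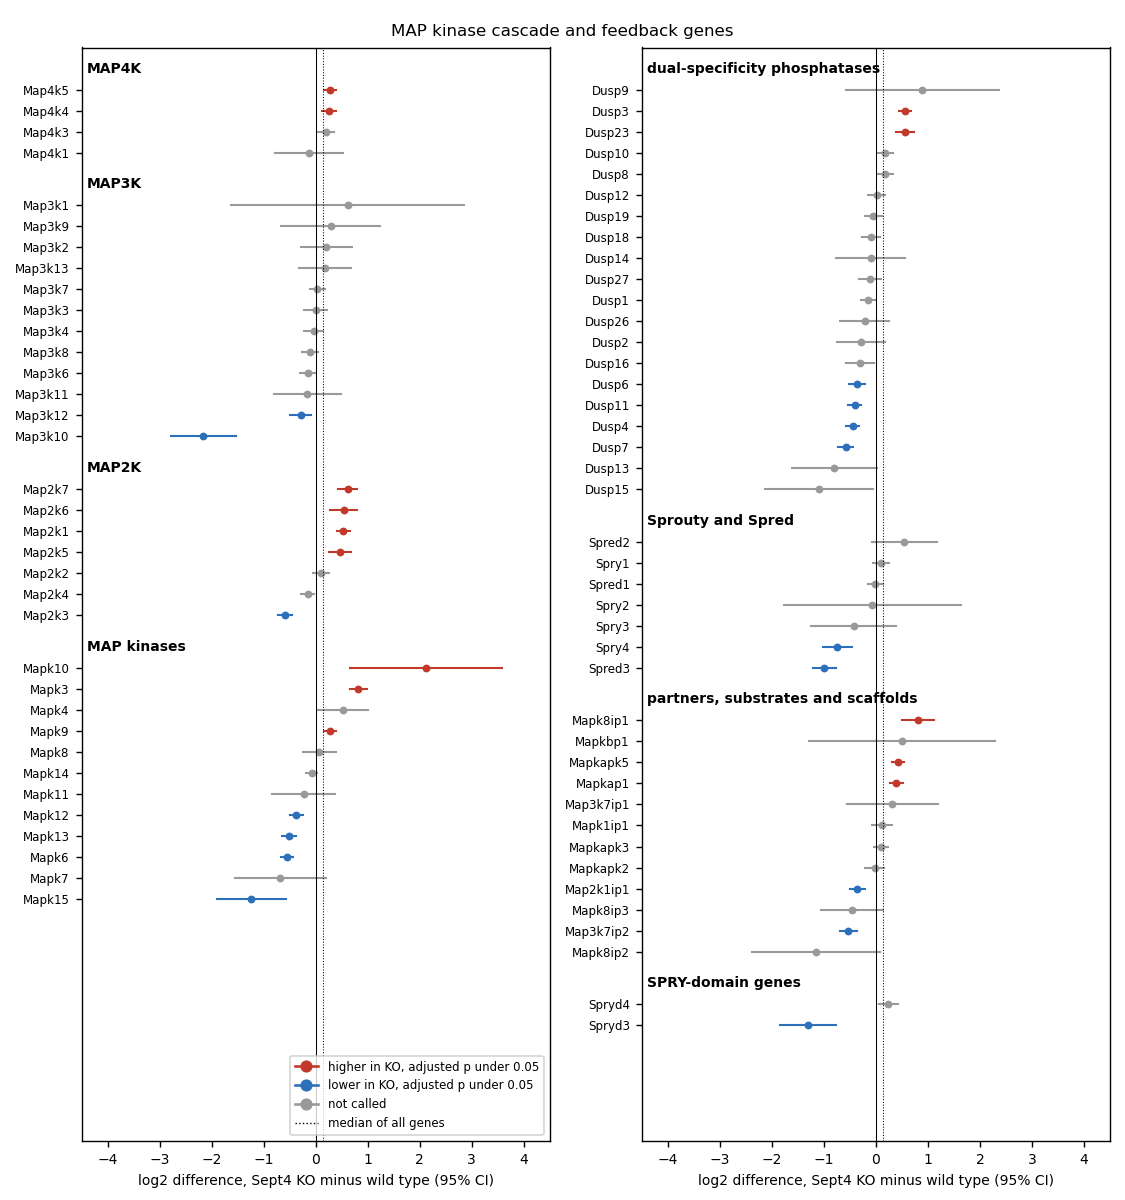
Log2 difference between Sept4 KO and wild-type stellate cells for all 76 genes, with 95% confidence intervals, grouped by tier of the cascade and sorted within each. Red points are higher and blue points lower in KO at an adjusted p under 0.05, grey points were not called, and the dotted line is the median of all genes at 0.14. The MAP2K tier lies mostly to the right and Spry4 and Spred3 to the left, and the longest bars belong to dim genes such as Map3k1 and Mapk10.

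Calls were more frequent among the brighter genes. Of the 43 members with a mean signal above the median of all genes, 11 rose and 12 fell, which is 25.6% and 27.9%, against 45.7% and 20.1% of all genes above that median. Of the 33 dimmer members, 3 rose and 4 fell, which is 9.09% and 12.1%, against 13.0% and 9.68% of the other genes. Among the brighter genes the members thus lacked the excess of rises over falls that all genes showed, as a description of these counts without a test. This split by signal was made in the deposited values only, and the excess depends on the scaling. Over genes of any signal, quantile normalisation left 24.7% of all genes higher and 19.5% lower, and 10 members higher and 20 lower.

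**Figure D2:**
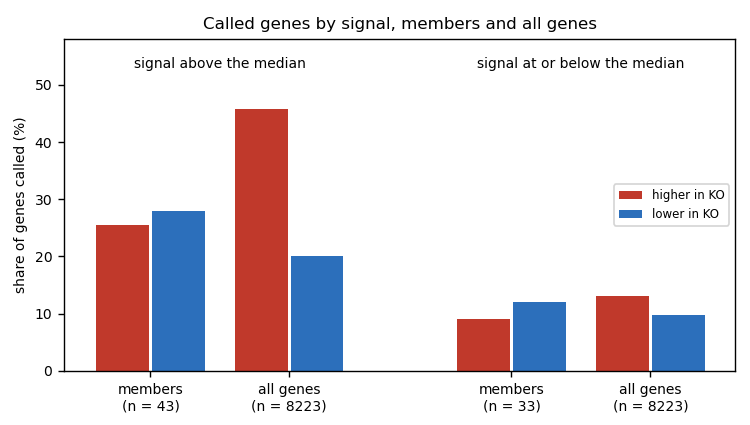
Share of genes called higher (red) or lower (blue) in Sept4 KO cells in the deposited values. Bars are for the 76 members and for all genes, on either side of the median signal of all genes. Among genes above the median, the red bar exceeds the blue bar for all genes (45.7% against 20.1%) but not for the members (25.6% against 27.9%).

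The MAP2K genes, whose products phosphorylate the MAP kinases, were mostly called: of 7 measured, 4 rose and 1 fell. That is 71.4% called and 57.1% higher, against 65.9% called and 45.7% higher among all genes above the median signal, where 6 of the 7 lie. Map2k1 encodes MEK1, an activator of ERK. Its log2 signal was 11.60, 11.59 and 11.54 on the KO arrays, against 11.09, 11.00 and 11.03 on the WT arrays. The groups did not overlap, and the difference was 0.53 ± 0.05 (SE), a 1.45-fold rise with a limma adjusted p of 0.00123. After cyclic loess the rise was 0.33. Its partner MEK2, encoded by Map2k2, read 11.09, 11.12 and 11.23 in KO, against 11.03, 11.09 and 11.01 in WT. All 3 KO values were marginally the higher, but the difference of 0.10 did not pass, and its 95% confidence interval ran from -0.05 to 0.25. It was -0.07 after quantile normalisation.

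The activators of p38 moved in opposite directions. Map2k3, which encodes MKK3, read 8.84, 8.83 and 8.94 in KO cells, against 9.49, 9.45 and 9.44 in WT cells. It fell by 0.59 ± 0.05 (SE) on the log2 scale, or 1.51-fold (limma adjusted p = 0.00122). Map2k6, which encodes MKK6, read 4.74, 5.07 and 4.90 in KO cells, against 4.29, 4.42 and 4.39 in WT cells. It rose by 0.54 ± 0.10 (SE; limma adjusted p = 0.0105). Neither gene's groups overlapped.

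Of the activators of JNK, Map2k7 (MKK7) read 6.64, 6.61 and 6.77 in KO, against 6.14, 6.02 and 6.01 in WT. It rose by 0.62 ± 0.07 (SE), or 1.53-fold (limma adjusted p = 0.00223). Map2k4 (MKK4), which can also act on p38, read 6.94, 7.02 and 7.00 in KO, against 7.10, 7.14 and 7.18 in WT. The groups did not overlap, yet the difference of -0.15 had a limma adjusted p of 0.0601 and did not pass. It passed after quantile normalisation, at -0.23. Map2k5, the activator of ERK5, read 7.87, 8.09 and 8.13 in KO, against 7.54, 7.59 and 7.56 in WT, and it rose by 0.46 ± 0.08 (SE).

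The 3 pairs of activators were also compared within arrays, by subtracting 1 gene's log2 signal from another's. A shift common to all genes of an array cancels in this way, though the array medians were already equal. A shift that depends on signal does not cancel between genes of unlike brightness, such as Map2k6 and Map2k3. Centred on its mean over the 6 arrays, Map2k1 minus Map2k2 lay between 0.10 and 0.30 on KO arrays and between -0.30 and -0.16 on WT arrays. Map2k6 minus Map2k3 lay between 0.43 and 0.78 on KO arrays and between -0.67 and -0.50 on WT arrays. Map2k7 minus Map2k4 lay between 0.29 and 0.47 on KO arrays and between -0.48 and -0.26 on WT arrays. The KO and WT ranges were apart for each pair, and the means of the genotypes differed by 0.43, 1.13 and 0.77. For Map2k6 with Map2k3 and for Map2k7 with Map2k4 such a gap was bound to appear. In each of these pairs the first gene's KO values all lay above its WT values and the second gene's all below. The gap therefore adds nothing to the results of the single genes. All 3 pairs were set up with the values of their genes known, and the differences are given without a test.

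**Figure D3:**
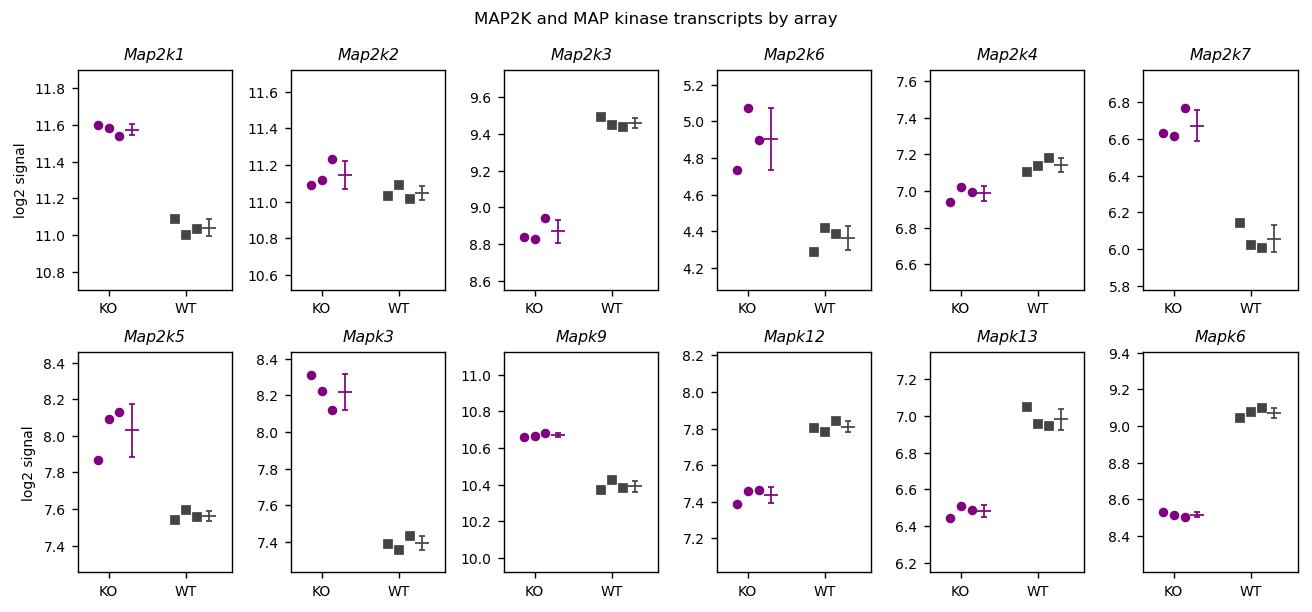
Log2 signal of 12 MAP2K and MAP kinase transcripts on each array, with Sept4 KO arrays as purple circles at the left of each panel and wild-type arrays as grey squares at the right. The bar beside each group is its mean and SD (n = 3), and each panel has its own scale. Map2k3 is lower and Map2k6 higher in KO, and the 2 groups lie close together for Map2k2 and Map2k4.

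The MAP kinases themselves moved in both directions: 3 of 12 rose and 4 fell, where 29.4% of all genes rose and 14.9% fell. Mapk3, which encodes ERK1, read 8.31, 8.22 and 8.12 in KO cells, against 7.39, 7.36 and 7.43 in WT cells. The lowest KO value was well above the highest WT value, and the rise of 0.83 ± 0.07 (SE) corresponds to 1.77-fold (limma adjusted p = 0.000932).

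Of the 4 p38 genes, 2 fell and 0 rose, where 14.9% of all genes fell and 29.4% rose. Mapk13 (p38 delta) read 6.44, 6.51 and 6.48 in KO, against 7.05, 6.95 and 6.95 in WT, and fell by 0.50 ± 0.05 (SE). Mapk12 (p38 gamma) read 7.39, 7.46 and 7.46 in KO, against 7.80, 7.78 and 7.84 in WT, and fell by 0.37 ± 0.05 (SE). Their adjusted p-values in limma were 0.00173 and 0.00335. Mapk14 encodes p38 alpha, the widely expressed form. It read 5.83, 5.84 and 5.85 in KO, against 5.94, 5.90 and 5.90 in WT, and although the groups did not overlap, the difference of -0.08 (95% confidence interval -0.18 to 0.03) did not pass. The dim Mapk11 (p38 beta) differed by -0.23, with a limma adjusted p of 0.49.

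Among the JNK genes, Mapk9 (JNK2) read 10.66, 10.67 and 10.68 in KO, against 10.37, 10.42 and 10.38 in WT. It rose by 0.28 ± 0.04 (SE) as deposited, with a limma adjusted p of 0.00587, but the call ended after quantile normalisation, at 0.10, and after cyclic loess, also at 0.10. Mapk8 (JNK1) read 4.51, 4.87 and 4.85 in KO, against 4.55, 4.66 and 4.80 in WT. These groups overlapped, and the difference of 0.07 had a 95% confidence interval of -0.25 to 0.40. Centred in the same way, Mapk9 minus Mapk8 overlapped between the genotypes, from -0.03 to 0.32 on KO arrays and from -0.24 to 0.00 on WT arrays. Mapk10 (JNK3), known mainly from neurons, read 2.91, 1.48 and 3.22 in KO, against 0.00, 0.12 and 1.13 in WT. The WT signals lay at the lowest value on 2 arrays, and the rise is known only roughly: 2.12 ± 0.57 (SE) as deposited and 1.17 with a linear offset. The call ended under both scalings and without KO replicate 1, KO replicate 3, WT replicate 1 or WT replicate 2, with adjusted p-values up to 0.102 in limma.

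The atypical MAP kinases Mapk6 and Mapk15 fell. Mapk6, which encodes ERK3, read 8.53, 8.52 and 8.51 in KO, against 9.04, 9.08 and 9.10 in WT. The spread within each genotype was small beside the fall of 0.55 ± 0.04 (SE; limma adjusted p = 0.000878). Mapkapk5 (MK5), the kinase that ERK3 binds and activates, moved the other way: it read 10.21, 10.20 and 10.26 in KO, against 9.82, 9.81 and 9.77 in WT. Its rise of 0.42 ± 0.05 (SE) shrank to 0.25 after quantile normalisation and remained called. Mapk15 (ERK7) read 2.61, 3.34 and 3.55 in KO, against 4.35, 4.47 and 4.41 in WT, a fall of 1.24 ± 0.26 (SE). It lost its call without WT replicate 2 or WT replicate 3, at adjusted p-values up to 0.0533 in limma. Mapk4 (ERK4), a relative of ERK3, differed by 0.53 and Mapk7 (ERK5) by -0.68, and neither passed. For Mapk7 the KO values were 3.91, 5.16 and 4.95, against 5.33, 5.30 and 5.43 in WT, so 1 KO array set most of that difference.

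Higher in the relay, 2 of 12 MAP3K genes fell and 0 rose. The share called was 16.7%, against 44.3% of all genes and 22.7% of those at or below the median signal. Map3k10 encodes the mixed-lineage kinase MLK2, an activator of the JNK branch. It read 0.43, 1.07 and 1.28 in KO, against 3.14, 2.90 and 3.20 in WT. It fell by 2.16 ± 0.24 (SE; limma adjusted p = 0.00217), and by 1.34 with the linear offset, since the KO signals were near the lowest values of the arrays. Map3k12, which encodes the leucine-zipper kinase DLK, fell by 0.29 ± 0.08 (SE), a call that was lost on leaving out any 1 array other than KO replicate 3. The relatives Map3k9, Map3k11 and Map3k13 differed by 0.29, -0.16 and 0.18 and did not pass. Map3k7 (TAK1), which serves transforming growth factor beta and interleukin 1 receptors, read 6.12, 6.24 and 6.16 in KO, against 6.18, 6.12 and 6.11 in WT. Its groups overlapped, and the 95% confidence interval of its difference ran from -0.11 to 0.17. Map3k8 (Tpl2), which activates MEK1, differed by -0.11, and Map3k3, Map3k4 and Map3k6 by 0.00, -0.04 and -0.15. Map3k1 and Map3k2 differed by 0.62 and 0.20, with intervals of -1.62 to 2.86 and -0.29 to 0.69. None of these passed as deposited. Map3k6 passed under both scalings, at -0.31 with quantile normalisation and -0.30 with cyclic loess.

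At the top, 2 of 4 MAP4K genes rose and 0 fell. Of all genes above the median signal, where the median of the MAP4K genes lies, 45.7% rose and 20.1% fell. Map4k5 read 11.64, 11.66 and 11.71 in KO, against 11.43, 11.38 and 11.36 in WT, a rise of 0.28 ± 0.05 (SE). Map4k4, a Ste20-related kinase that acts in the JNK branch, read 10.52, 10.60 and 10.58 in KO, against 10.30, 10.37 and 10.26 in WT, a rise of 0.26 ± 0.05 (SE). Both calls ended after quantile normalisation, at 0.09 and 0.07, and after cyclic loess, at 0.07 and 0.08, and that of Map4k4 also without KO replicate 2. Map4k3 differed by 0.19 with a limma adjusted p of 0.0682 and changed sign after quantile normalisation. Map4k1, a kinase of blood cells, differed by -0.13.

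The 12 scaffolds, partners and substrates named after MAP kinases were divided, with 3 higher and 2 lower. The share called was 41.7%, against 44.3% of all genes. Mapk8ip1 encodes JIP1, a scaffold that holds the JNK module together. It read 4.57, 4.79 and 4.71 in KO, against 4.10, 3.73 and 3.81 in WT, a rise of 0.81 ± 0.12 (SE) or 1.76-fold (limma adjusted p = 0.00499). The other JNK scaffold genes, Mapk8ip2 and Mapk8ip3, differed by -1.15 and -0.47 and did not pass, and both were dim. Mapkap1 (Sin1), a subunit of the TOR complex that phosphorylates Akt, rose by 0.39 ± 0.05 (SE), or by 0.25 after cyclic loess. It is a member by its name and is no part of the relay.

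On the lower side, Map3k7ip2, now called Tab2, encodes an adaptor that couples TAK1 to ubiquitin chains. It read 8.07, 7.95 and 8.01 in KO, against 8.62, 8.54 and 8.48 in WT, a fall of 0.53 ± 0.06 (SE). Map2k1ip1, now called Lamtor3, encodes the MEK1 partner MP1 of the late endosome. It read 10.30, 10.37 and 10.38 in KO, against 10.73, 10.76 and 10.63 in WT, and fell by 0.36 ± 0.06 (SE), or by 0.54 after cyclic loess. MEK1 (Map2k1) and its partner MP1 thus moved in opposite directions. The p38 substrates Mapkapk2 and Mapkapk3 differed by -0.03 and 0.09, with intervals of -0.21 to 0.16 and -0.05 to 0.23. Map3k7ip1 (Tab1), Mapk1ip1 and Mapkbp1 differed by 0.31, 0.11 and 0.50 and did not pass.

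Among the 20 phosphatase genes, 2 rose, 4 fell and 14 were not called, where 29.4% of all genes rose and 14.9% fell. The median signal of the phosphatase genes lies above that of all genes. Of all genes above that median, 45.7% rose and 20.1% fell. Among the phosphatase genes that fell, 3 encode phosphatases that act on ERK. Dusp7, a cytoplasmic ERK phosphatase, read 6.79, 6.78 and 6.84 in KO cells, against 7.30, 7.45 and 7.40 in WT cells. It fell by 0.58 ± 0.06 (SE), or 1.50-fold (limma adjusted p = 0.00151). Dusp4, an inducible nuclear phosphatase, read 6.34, 6.30 and 6.35 in KO, against 6.72, 6.79 and 6.81 in WT. The groups were well apart, with a fall of 0.44 ± 0.05 (SE) and an adjusted p of 0.00198 in limma. Dusp6, the ERK phosphatase commonly used to read out ERK signalling, read 11.09, 11.13 and 11.18 in KO, against 11.58, 11.51 and 11.41 in WT. It fell by 0.37 ± 0.06 (SE; limma adjusted p = 0.00759) as deposited and by 0.57 after cyclic loess.

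The other ERK phosphatase of the cytoplasm, the dim Dusp9, read 4.09, 3.90 and 3.41 in KO, against 3.60, 3.44 and 1.68 in WT. The groups overlapped, and its difference of 0.89 had a 95% confidence interval of -0.58 to 2.36. Dusp1, an immediate early phosphatase of p38 and JNK, read 10.07, 10.12 and 10.09 in KO, against 10.31, 10.22 and 10.21 in WT. The KO values were all lower, but the difference of -0.15 had a limma adjusted p of 0.0645. It was -0.33 and passed after quantile normalisation. Dusp2 differed by -0.29 and did not pass, and Dusp5 was not analysed here.

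The phosphatases that prefer JNK and p38 did not pass: Dusp8 and Dusp10 each differed by 0.18, and Dusp16 by -0.31. For all 3 the groups did not overlap, as for 57.6% of all genes, and the adjusted p-values of the 3 in limma ran from 0.051 to 0.0726. Their calls therefore lay close to the threshold.

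The atypical phosphatases, which lack the MAP kinase-binding domain, held the 2 rises. Dusp3 (VHR), which acts on ERK and JNK, read 7.21, 7.19 and 7.19 in KO, against 6.69, 6.63 and 6.59 in WT. It rose by 0.56 ± 0.05 (SE), or 1.47-fold (limma adjusted p = 0.00105). Dusp23 read 7.98, 7.98 and 7.93 in KO, against 7.50, 7.41 and 7.29 in WT, and rose by 0.56 ± 0.07 (SE). Dusp11, which removes phosphate from RNA ends rather than from MAP kinases, read 8.87, 8.88 and 8.92 in KO, against 9.32, 9.33 and 9.25 in WT, and fell by 0.41 ± 0.05 (SE). The other 8 atypical members were not called, and their differences ran from -1.09 for the dim Dusp15 to 0.01 for Dusp12. After quantile normalisation Dusp12 was at -0.15 and was called, at a limma adjusted p of 0.0487, and after cyclic loess it was at -0.14 and was not.

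Of the 7 Sprouty and Spred genes, 2 fell and 0 rose. The share that fell was 28.6%, against 14.9% of all genes. Spred3 read 6.98, 7.08 and 7.25 in KO, against 8.08, 8.05 and 8.15 in WT. The fall of 0.99 ± 0.09 (SE), or 1.99-fold, had a limma adjusted p of 0.00111. Spry4 read 3.88, 4.20 and 4.03 in KO, against 4.69, 4.74 and 4.92 in WT, and it fell by 0.75 ± 0.11 (SE; limma adjusted p = 0.00473). For both, every KO value was below every WT value.

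The other members of these families did not pass. Spry1 read 10.39, 10.35 and 10.39 in KO, against 10.37, 10.27 and 10.20 in WT, and its difference of 0.09 (95% confidence interval -0.06 to 0.25) turned to -0.10 after quantile normalisation. Spred1, the member mutated in Legius syndrome in humans, read 7.20, 7.21 and 7.28 in KO, against 7.24, 7.18 and 7.30 in WT, a difference of -0.01 with an interval of -0.15 to 0.13. Spry2, a feedback inhibitor of receptor tyrosine kinases, was dim and scattered, at 2.53, 3.51 and 0.96 in KO, against 2.44, 2.17 and 2.59 in WT. Spred2 read 3.80, 3.30 and 2.98 in KO, against 2.65, 2.69 and 3.09 in WT, and Spry3 differed by -0.43. The intervals of Spry2 and Spry3, -1.78 to 1.64 and -1.24 to 0.38, would include changes larger than those of Spry4.

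**Figure D4:**
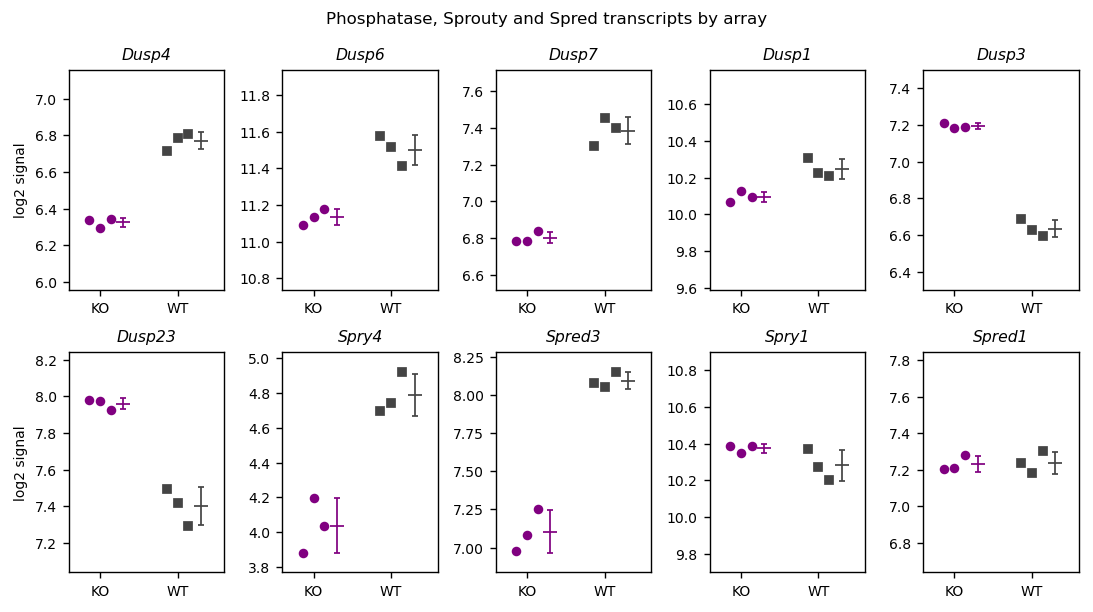
Log2 signal of 10 phosphatase, Sprouty and Spred transcripts on each array, with Sept4 KO arrays as purple circles at the left of each panel and wild-type arrays as grey squares at the right. The bar beside each group is its mean and SD (n = 3), and each panel has its own scale. Dusp4, Dusp6, Dusp7, Spry4 and Spred3 are lower in KO, Dusp3 and Dusp23 are higher, and the groups overlap for Spry1 and Spred1.

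The prefix Spry also took in Spryd3 and Spryd4, which are named for a SPRY domain and are not Sprouty proteins. Spryd3 read 3.94, 4.35 and 4.75 in KO, against 5.71, 5.65 and 5.59 in WT, a fall of 1.31 ± 0.21 (SE) with a limma adjusted p of 0.00658. Spryd4 differed by 0.24 with a limma adjusted p of 0.0512. Without these 2 genes, 14 of 74 rose and 15 fell.

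The signs of the 30 called genes were the same under quantile normalisation and cyclic loess as in the deposited values. Under the 2 scalings most falls became larger and most rises smaller. The calls of Map4k4, Map4k5, Mapk9 and Mapk10 ended under both.

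**Figure D5:**
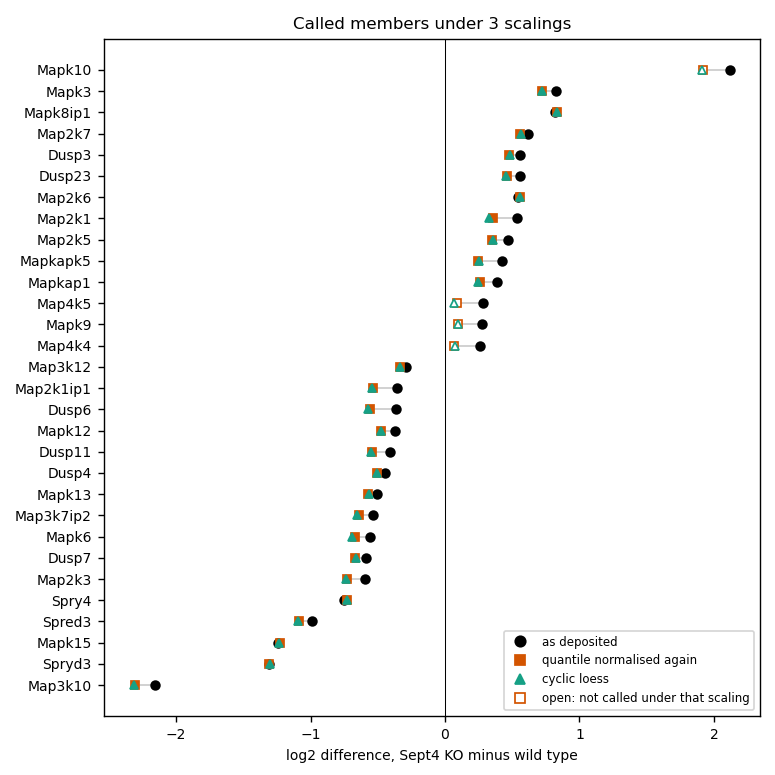
Log2 difference between Sept4 KO and wild-type cells for the 30 called genes as deposited (black circles), after quantile normalisation (orange squares) and after cyclic loess (green triangles). Open symbols are not called under that scaling. Mapk10, Map4k5, Mapk9 and Map4k4 are open under both, and no gene crosses 0.

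Genes of the same pathway with other names were examined in lists of upstream, parallel and downstream genes. Of 82 measured, 20 rose and 22 fell, with a median log2 difference of 0.03. That is 51.2% called, against 44.3% of all genes. After quantile normalisation 14 rose and 27 fell, and the same counts held after cyclic loess. The calls that ended under both were 6 rises, those of Ddit3, Erf, Etv5, Phlda1, Ptpn7 and Shc1, and the 5 genes that became called lower were Braf, Errfi1, Gadd45g, Pebp1 and Rras2. Up to 3 genes per list are named by size of difference. Further ones, where a count was 5 or fewer, and Ier3 were named after their values were seen.

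Upstream, Araf, the Raf kinase gene that feeds MEK1 and MEK2, read 9.34, 9.32 and 9.37 in KO, against 8.58, 8.64 and 8.50 in WT. It rose by 0.77 ± 0.06 (SE; limma adjusted p = 0.00076). The related Braf differed by -0.16 and did not pass as deposited. Of the 9 Raf and scaffold genes 4 rose and 1 fell: the others that rose were Arrb1 (beta-arrestin 1) by 0.94, the Ras-Raf scaffolds Iqgap1 by 0.52 (0.32 after cyclic loess) and Shoc2 by 0.32 (not called without WT replicate 2 or WT replicate 3), and the one that fell was Ksr2 by 0.76, whose call ended on leaving out any 1 array other than KO replicate 3. The share of Raf and scaffold genes called was thus 55.6%, against 44.3% of all genes. Of 5 Ras genes only Rras passed (20.0%), with a rise of 0.47. Of 6 genes for Ras GTPase-activating proteins, which switch Ras off, 3 fell and 0 rose, where 14.9% of all genes fell and 29.4% rose. The falls were 1.07 ± 0.12 (SE) for Rasal1, 0.64 ± 0.09 (SE) for Rasa4 and 0.62 ± 0.06 (SE) for Rasa2. Nf1, a dim gene here, differed by 0.94 and did not pass, and neither did Rasa1 or Rasa3.

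Among 13 adaptors and exchange factors, 5 rose and 2 fell. The share called was 53.8%, against 44.3% of all genes. The exchange factor gene Sos2 rose by 0.53 while its relative Sos1 fell by 0.40, and Rasgrp2 fell by 0.60. Rasgrp1 read 2.32, 2.78 and 2.03 in KO, against 0.42, 0.42 and 0.53 in WT. It rose by 1.92 as deposited and by 1.03 with the linear offset, since the WT signals were near the lowest values. The adaptor genes Ptpn11 (Shp2), Gab1 and Shc1 rose by 0.49, 0.37 and 0.26. Gab1 was at 0.18 after quantile normalisation, Shc1 lost its call there, at 0.12, and without KO replicate 2 or 3 or WT replicate 1 or 3, and Sos1 lost its call without KO replicate 1 or any 1 WT array. Of 6 other Ste20 and MAP kinase relatives 2 fell (33.3%, against 14.9% of all genes) and 0 rose. Those that fell were Nlk (Nemo-like kinase) by 0.62 and the dim Taok2 by 1.32 (0.64 with the linear offset). The call of Taok2 ended with a trended and robust prior, at an adjusted p of 0.0624 in limma. The inhibitor genes Ptpn7 and Erf rose by 1.11 and 0.30, and both calls ended after quantile normalisation and after cyclic loess. With the linear offset the rise of Ptpn7 was 0.54, its WT signal lay at the lowest value on 1 array, and its call ended with a trended and robust prior, at a limma adjusted p of 0.123. The calls of both genes also ended on leaving out arrays, that of Erf without any 1 array other than WT replicate 3 and that of Ptpn7 without any 1 array other than WT replicate 1.

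Downstream, 4 of 7 kinase genes fell and 1 rose. These shares were 57.1% and 14.3%, against 14.9% and 29.4% of all genes. Rps6ka3 (RSK2) fell by 0.64, Mknk1, whose product phosphorylates the cap-binding protein eIF4E, by 0.69, Rps6ka5 (MSK1) by 0.70 and Rps6ka4 (MSK2) by 0.37, whereas Rps6ka1 (RSK1) rose by 0.51. The call of Rps6ka5 ended without WT replicate 2 or WT replicate 3, and that of Rps6ka4 without KO replicate 2, KO replicate 3 or WT replicate 1. Of 15 measured transcripts known to be induced through ERK, 7 fell, 3 rose and 5 were not called. The share that fell was 46.7%, against 14.9% of all genes and 20.1% of those above the median signal, where the list's own median lies. The share called was 66.7%, against 65.9% of all genes above that median. Egr1 read 7.61, 7.66 and 7.61 in KO, against 9.35, 9.41 and 9.39 in WT, a fall of 1.76 ± 0.05 (SE) with a limma adjusted p of 0.000214. Egr2 and Myc fell by 1.78 ± 0.05 and 1.69 ± 0.06 (SE). The only fall of this list to lose its call under an alternative was that of Ier3. It fell by 0.24, or by 0.41 after quantile normalisation. Its call ended with the replicate number as a block and without KO replicate 2 or WT replicate 2. The 3 that rose were Fosb by 1.27, Phlda1 by 0.23 and Etv5 by 0.17. The calls of Phlda1 and Etv5 ended after both scalings, at 0.02 and 0.07 with quantile normalisation, with Phlda1 at -0.03 after cyclic loess, and without any 1 array. Of 14 transcription factor and stress genes regulated by MAP kinases 4 rose and 3 fell. These shares were 28.6% and 21.4%, against 29.4% and 14.9% of all genes. Mef2d, a p38 and ERK5 target, rose by 0.87, whereas Srf, the partner of the ERK-regulated Elk factors, fell by 0.64 and Jun, the substrate of JNK, by 0.40. The others were Elk3, Atf2 and Ddit3, which rose by 0.28, 0.27 and 0.22, and Gadd45b, which fell by 0.35. The call of Ddit3 ended under both scalings, at 0.04 with quantile normalisation, and without any 1 array other than KO replicate 1. The rise of Elk3 was not called without KO replicate 1, KO replicate 3, WT replicate 1 or WT replicate 2, and that of Atf2 not without WT replicate 2.

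Markers of other liver cells were read beside these results. Linear signals of 8 of 10 hepatocyte markers summed to 2747 to 2842 on KO arrays and to 2313 to 2391 on WT arrays, and 4 of the 8 rose and 1 fell. For 7 of 10 macrophage markers the sums were 1962 to 2024 on KO arrays and 2010 to 2213 on WT arrays, with 1 higher and 3 lower. Marco, the brightest of them, differed by -0.07, whereas Emr1, Cd14 and C1qa differed by -1.27, -1.01 and -0.98 and Clec4f by 0.52. For 7 of 7 mesothelial and portal fibroblast markers the sums were 203 to 229 on KO arrays and 332 to 352 on WT arrays, with 0 higher and 2 lower. The lower ones were Thy1, at -2.24, and the dim Gpm6a, at -1.52. Eln, about as bright as Thy1 in WT cells, differed by 0.05. The lower sum thus followed mainly Thy1 and was not a shift of the whole list. The sums of 4 of 6 cholangiocyte markers were 46.4 to 53.4 on KO arrays and 31.9 to 43.7 on WT arrays. Those of 6 of 8 endothelial markers were 138 to 172 on KO arrays and 139 to 162 on WT arrays, and those of 6 of 7 lymphocyte markers 148 to 178 on KO arrays and 138 to 154 on WT arrays. The stellate markers summed to 64179 to 66424 on KO arrays and to 52775 to 59094 on WT arrays, with 9 of 13 higher and 3 lower. The brightest of them moved in both directions: Col3a1 and Dcn differed by 2.09 and 0.91, and Acta2 by -0.56. The lowest value of an array was reached by Vwf among the endothelial markers, by Cd3e, Cd3g and Nkg7 among the lymphocyte markers, by Fbln2 and Upk3b among the mesothelial and portal fibroblast markers and by 0 of the hepatocyte, macrophage and cholangiocyte markers. The part of these shifts in the results above was not tested, and in a bulk sample fewer cells of a type and less RNA per cell cannot be told apart.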

How the data were processed

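Hepatic stellate cell RNA had been hybridised to 6 arrays in 1 colour (Cy5), 3 of Sept4 KO and 3 of wild-type cells, grouped by the sample titles. The authors deposited log2 signals for 23473 probes, already quantile normalised per the labels. The 6 arrays nevertheless did not share 1 distribution, with upper quartiles from 7.70 to 7.84 and highest values from 15.7 to 16.8. Base 2 was inferred from how far the values range, and the background correction is not given in the sources used here. The protocol for labelling mentions tumour samples and a microRNA kit, unlike the stated design, so the cell type and genotype labels were followed. Of the probes, 16631 had 1 symbol in the platform annotation. The 76 members had 77 probes, all matched a RefSeq gene on GRCm38.p6, and 3 of them matched as synonyms. Only Dusp12 had a second probe.

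Differences are KO minus wild type from lmFit and eBayes in limma 3.58.1 (R 4.3.3), without normalising again, two-sided, with Benjamini-Hochberg adjustment over all probes; intervals are 95% confidence intervals, and residual degrees of freedom were 4. The number of arrays limits the precision. Between 940 and 1255 probes per array were tied at its lowest value. On simulated data with known changes the fit was tested first. Members and lists were chosen with earlier results of these data known. Members were named with all 6 values where called at 0.7 or more, or where listed as classical kinases and feedback genes; the arrays of further members were added after their values were seen. Alternatives were quantile normalisation, cyclic loess, array weights, a trended and robust prior, median centring, omission of the dimmest 25% or 50% of probes or of those at a lowest value, an offset added on the linear scale (the 10th percentile), a replicate block, leaving out each array and averaging a gene's probes. Figures were drawn with matplotlib 3.10.9.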

Additional observations from a re-analysis of the deposited data

How the results depend on the processing

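Of the 30 members called as deposited, 23 kept their call under every alternative that tested them, and all 30 kept their direction. The exceptions were Map4k4, Map4k5, Mapk9 and Mapk10 under both scalings, Dusp6, Map3k12, Map4k4 and Map4k5 with the replicate number as a block, and Map3k12, Mapk10, Mapk15 and Map4k4 when single arrays were left out. The number of called members ran from 26 to 39, highest with a trended and robust prior, and from 27 to 31 when 1 array was left out. The replicate block left 26 members and 7724 probes called, against 30 and 10025 without it. Same-numbered arrays deviated together with correlations of 0.01, 0.00 and 0.00, so the samples share only a number. The count of other pathway genes that rose, 20 as deposited, was 12 to 17 when 1 array was left out, lowest without WT replicate 2 (12) and without KO replicate 3 (13), and the cause was not tested.

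Of the calls over all probes, 62.6% were higher in the deposited values, 52.5% with quantile normalisation and 51.5% with cyclic loess. Genes with differences near 0 changed sign, among them Dusp12, Map2k2, Map3k3 and Map3k7 after quantile normalisation. Map4k3 also changed sign there, although it differed by 0.19 as deposited and its groups did not overlap. Spry1 turned to -0.10 after quantile normalisation and -0.083 after cyclic loess. Spry2, at -0.07 as deposited, was 0.034 with the linear offset and 0.31 with array weights, and -0.66 to 0.62 when 1 array was left out. Spred1 was -0.039 to 0.021 when 1 array was left out. The cause was not tested. Leaving out dim probes removed Map3k10 and Mapk10 at 25%, and also Map2k6, Mapk15, Mapk8ip1 and Spry4 at 50%, so those alternatives say nothing of them.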
